A study of Mus musculus with 12 samples.

Results

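Narrow m6A peaks are the 1800 of 12923 peaks (13.9%) whose end minus start is at most 250 bases, set against the other 11123 peaks of the same table. They were chosen by width alone and not by their m6A values. m6A was profiled by MeRIP-seq: polyA RNA is broken into fragments, an antibody pulls down those that carry m6A (the IP), and they are sequenced together with RNA that skipped this step (the input). All samples were of E14TG2a, a mouse embryonic stem cell line grown with LIF, the MEK inhibitor PD0325901 and the GSK3 inhibitor CHIR99021. The 3 genotypes were wild type (WT), Alkbh5 KO, which lacks the demethylase Alkbh5, and Alkbh5 del-cIDR, named for a deletion of the cIDR of Alkbh5; the labels do not spell this name out, and the study's title is about intrinsically disordered regions. Each genotype had 2 input and 2 IP samples, 12 in all, which gave 6 libraries with a ratio per peak. The labels do not say whether replicates were separate cultures or whether a genotype is 1 clone, so the spread between them may be technical. The genotype and the cell type were not checked against Alkbh5 or stem cell marker genes, because the gene identifiers could not be paired with symbols here.

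m6A is placed on mRNA by a methyltransferase complex that holds Mettl3 and Mettl14, mostly at adenosines within the DRACH sequence motif and often near stop codons. Alkbh5 and Fto can remove it, and YTH domain proteins bind it and influence the splicing, export, translation and decay of the RNA. A MeRIP peak is a region where fragments from the IP pile up over those of the input, so it marks the surroundings of modified adenosines and not the single base.

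Each deposited value is the ratio of IP to input reads of a peak, multiplied by 1 constant per library that sets a control RNA carrying m6A to 4.10 in all 6 libraries. A control RNA named as unmodified had ratios of 0.0527 and 0.0200 in WT, 0.0100 and 0.0195 in KO, 0.0218 and 0.0202 in del-cIDR. The first control is RNA with the mark, and the second gives the background of the precipitation; neither bounds the peaks, some of which lay above or below both. Dividing the values by the library's constant gave ratios of whole numbers for 99.2% to 99.8% of the narrow peaks above 0. In lowest terms, which are lower bounds on the reads, the medians over libraries were 49 to 89 for input and 81 to 103 for IP at narrow peaks, and 67 to 127 and 226 to 331 at the others. Such reads cover counting error only.

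Narrow peaks had lower m6A ratios than the other peaks in every library. Their median ratio was 0.785 and 0.696 in WT, 0.828 and 0.932 in KO, 0.745 and 0.792 in del-cIDR. The median of the other peaks was 1.79 and 1.58 in WT, 1.82 and 2.07 in KO, 1.66 and 1.65 in del-cIDR. The lowest median of the other peaks thus lay above the highest of the narrow peaks. On the log2 scale the median narrow peak stood at -1.15 ± 0.05 relative to the median of the others (SD, n = 6 libraries), so the others were 2.21 times as high, with a range of 2.08 to 2.29 over libraries. An exact two-sided sign-flip permutation test over the 6 libraries gave p = 0.03125, the smallest it can give, and the same after Benjamini-Hochberg adjustment over the 2 tests of this kind. Constants per library cancel in this measure. It was -1.21 among peaks with at least 50 input and 50 IP reads in every library, a condition chosen after seeing the data. The libraries behind the peak calls are not named in the sources used here, so the width of a peak and its ratio may rest on the same IP reads.

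The ratio was higher at larger widths inside the narrow class as well as beyond it. The 122 peaks of exactly 200 bases, the smallest width in the table, had a median of the mean ratio over libraries of 0.654. It was 0.792 for the 1014 peaks of 201 to 225 bases and 0.954 for the 664 peaks of 226 to 250 bases. The order of these width classes was the same in all 6 libraries. Beyond the limit the medians were higher still, with 1.07 just above the limit, up to 275 bases, 1.31 at 301 to 400 bases and 2.82 in the 1168 peaks over 1000 bases. No step lay at the limit itself: the 48 peaks at the limit or 1 base below it had a median of 1.07, and the 33 peaks 1 or 2 bases above it had 0.946. As a description across peaks, which share libraries and are not independent, Spearman's rho of width and mean ratio was 0.202 over the 1800 narrow peaks and 0.401 over the 11123 others.

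**Figure D1:**
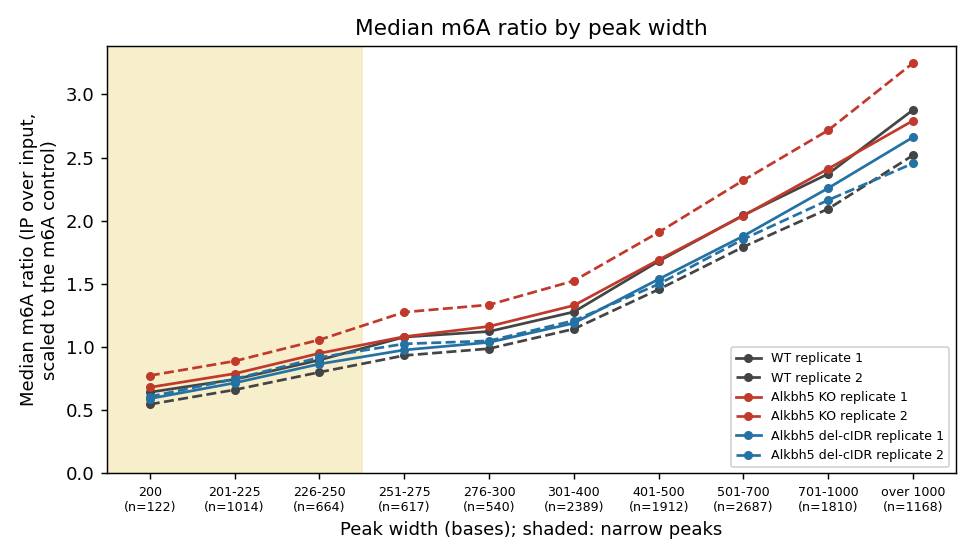
Median m6A ratio (vertical axis, IP over input scaled to the m6A control) of peaks grouped by width in bases (horizontal axis, with the number of peaks), 1 line per library, narrow peaks shaded. Medians of the mean ratio go from 0.654 at 200 bases to 2.82 over 1000 bases, and KO replicate 2 is the highest line throughout.

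Single narrow peaks nevertheless covered a wide range. The mean ratio over libraries went from 0.008 to 9.75, with a median of 0.823 and quartiles of 0.552 and 1.22. A mean of at least 1 was reached by 681 narrow peaks (37.8%) and by 78.8% of the others, and a mean of at least 2 by 126 (7.0%) and 44.2%. At the low end 379 narrow peaks (21.1%) had a mean under 0.5, against 3.46% of the others. Only 168 narrow peaks (9.33%) lay above the median of the other peaks, 1.80.

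Against the controls, nearly all narrow peaks stood between the unmodified RNA and the RNA with m6A. In all 6 libraries 1757 narrow peaks were above the unmodified control. The remaining 43 were at or below it in at least 1 library, among them 1 peak in all 6, while 10 of the other peaks were at or below it in at least 1 library. WT replicate 1, where this control was highest, had 35 narrow peaks at or below it, and the other libraries had 9 to 12. Ratios above the m6A control in all 6 libraries were found for 4 narrow peaks (0.222%) and 757 others (6.81%), and 50 narrow peaks exceeded it in at least 1 library.

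**Figure D2:**
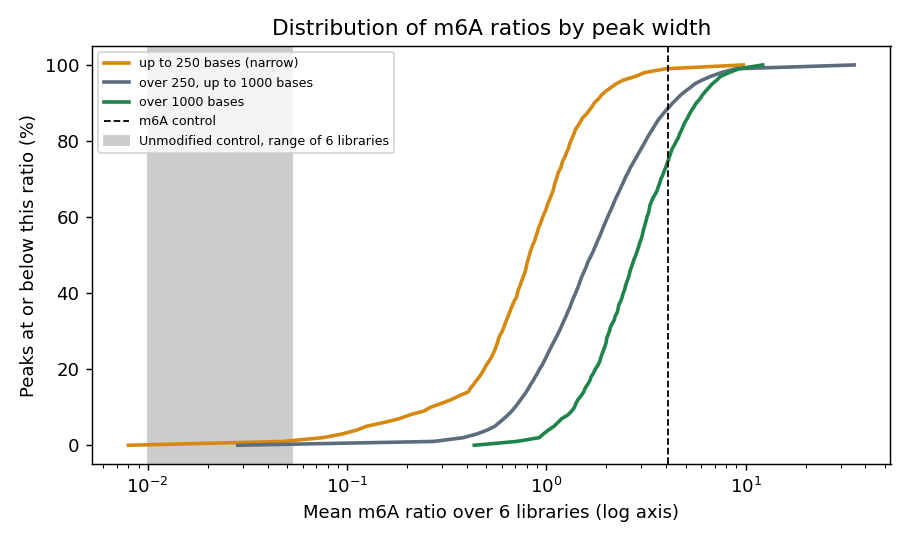
Share of peaks (vertical axis, percent) at or below a mean m6A ratio over 6 libraries (horizontal axis, log scale) for narrow peaks, peaks over 250 and up to 1000 bases, and peaks over 1000 bases. The grey band is the range of the unmodified control over 6 libraries and the dashed line is the m6A control at 4.10. The narrow peaks lie to the left of both other classes, with 37.8% of them at a mean ratio of at least 1.

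The 10 narrow peaks with the highest mean ratios show how strongly a short region can be enriched and how far its replicates can part. Coordinates are in GRCm39 and counted from 1. The highest, chr9:62933126-62933372, had ratios of 7.18 and 8.15 in WT, 11 and 15.2 in KO, 7.69 and 9.32 in del-cIDR. Both KO libraries lay above the other 4. The next, chr17:56195652-56195855, had 7.20 and 10.0 in WT, 7.59 and 10.4 in KO, 4.69 and 8.50 in del-cIDR, so that all 3 genotypes overlapped. Its recovered input reads in lowest terms went down to 1, in KO replicate 2 and del-cIDR replicate 1. At chr19:6928350-6928593 the ratios were 5.06 and 5.25 in WT, 6.11 and 14.0 in KO, 3.55 and 4.11 in del-cIDR. There the genotypes did not overlap, but KO replicate 2 alone stood far above the rest. At chr2:135855006-135855239 the libraries were closest, with 6.23 and 5.58 in WT, 5.44 and 5.72 in KO, 4.79 and 6.02 in del-cIDR. That peak gave at least 222 input reads in 1 library and at least 1781 IP reads in another. In KO replicate 2 these lower bounds were 19 and 115. Its highest value was 1.30 times its lowest, with the genotypes overlapping.

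The other 6 of these 10 peaks had mean ratios from 4.97 to 6.08. At chr16:10240399-10240638 del-cIDR was the lowest genotype, with 4.12 and 2.35, against 6.12 and 6.74 in WT and 5.36 and 7.30 in KO. At chr11:78070973-78071202 it was also the lowest, with 4.11 and 3.84 against 5.51 and 5.10 in WT and 5.00 and 7.59 in KO. At chr17:28551295-28551536, chr6:122430357-122430606, chr9:21927458-21927704 and chr12:111801261-111801509 WT and KO overlapped. The 10 peaks were picked for their level, and none of their genotype differences passed the test described below.

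**Figure D3:**
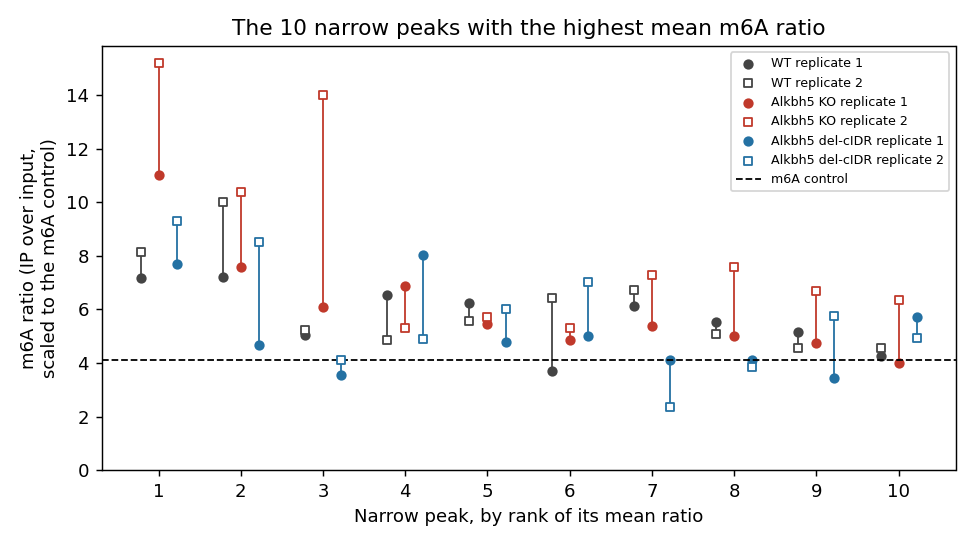
m6A ratio (vertical axis) of the 10 narrow peaks with the highest mean ratio, ranked along the horizontal axis, with replicate 1 as filled circles and replicate 2 as open squares for WT, KO and del-cIDR, joined by a line. The dashed line is the m6A control at 4.10. KO replicate 2 reaches 15.2 at rank 1 and 14.0 at rank 3, while all libraries lie between 4.79 and 6.23 at rank 5.

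Narrow peaks had another peak nearby about as often as the others. Another peak began or ended within 1000 bases of 475 narrow peaks (26.4%) and of 25.9% of the others, and within 10000 bases of 58.0% and 53.8%. The median gap to the nearest peak was 5718 bases for narrow and 7657 for other peaks. Narrow peaks were the lower class with and without a near neighbour: the median of the mean ratio was 0.922 for those with a peak within 1000 bases and 0.839 for the 756 with none within 10000 bases, against 1.70 and 1.86 for the others.

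Beside a wider peak, the narrow one was mostly the lower of the pair. For 388 narrow peaks the nearest peak was over 250 bases wide and at most 1000 bases away, and these had 383 different neighbours. The median of the mean ratio was 0.931 for the narrow peaks and 1.78 for the neighbours. The narrow peak was lower in all 6 libraries in 271 pairs (69.8%) and higher in all 6 in 51. The median log2 ratio of narrow to neighbour was -0.97 and -0.98 in WT, -0.89 and -0.90 in KO, -0.96 and -0.80 in del-cIDR, with a mean of -0.92 ± 0.07 (SD, n = 6). The exact two-sided sign-flip permutation test over libraries gave p = 0.03125, the smallest it can give. The pairs are the same in all 6 libraries, and here too the width of a peak and its ratio may rest on the same IP reads. Whether both peaks of a pair lie in the same transcript was not analysed here.

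Replicates of a genotype differed more at narrow peaks than at the others. After taking off the median shift between replicates, the median absolute log2 ratio of replicate 1 to replicate 2 was 0.23 in WT, 0.22 in KO and 0.28 in del-cIDR over the 1779 narrow peaks above 0 in every library. Over 11117 other peaks it was 0.18, 0.16 and 0.22. The difference was 0.061 ± 0.008 (SD, n = 3 genotypes) and had the same direction in all 3, for which an exact two-sided sign-flip permutation test cannot give a p below its 0.25. Replicates were more than 2-fold apart at 85 narrow peaks in WT (4.78%), 81 in KO (4.55%) and 104 in del-cIDR (5.85%), against 1.76%, 1.99% and 2.96% of the others. On the log2(ratio + 1) scale, which compresses ratios under 1, the difference turned to -0.0081.

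Narrow peaks also had fewer recovered reads than the others, and whether this accounts for the spread was not tested. Their reads in lowest terms, IP and input of both replicates together, had a median of 380.5 in WT, 366 in KO and 332.5 in del-cIDR, against 956, 880 and 808 for the others. Within 5 equal groups of peaks by these reads, the narrow peaks differed from the others by 0.005 ± 0.013 on average (-0.01 in WT, 0.01 in KO and 0.01 in del-cIDR; exact sign-flip p = 0.5). Within 5 such groups by mean ratio the difference was 0.091 ± 0.022 instead, and with both matched, a setting chosen after seeing the data, it was 0.031 ± 0.022 and positive in all 3 genotypes. Counting error computed from the reads in lowest terms, an upper bound, gave a median of 0.25, 0.24 and 0.26 for narrow peaks in WT, KO and del-cIDR. The observed spread of each peak was also divided by its own counting error. The median of this quotient was 0.983, 0.928 and 1.07 for narrow peaks and 1.01, 0.941 and 1.09 for the others.

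**Figure D4:**
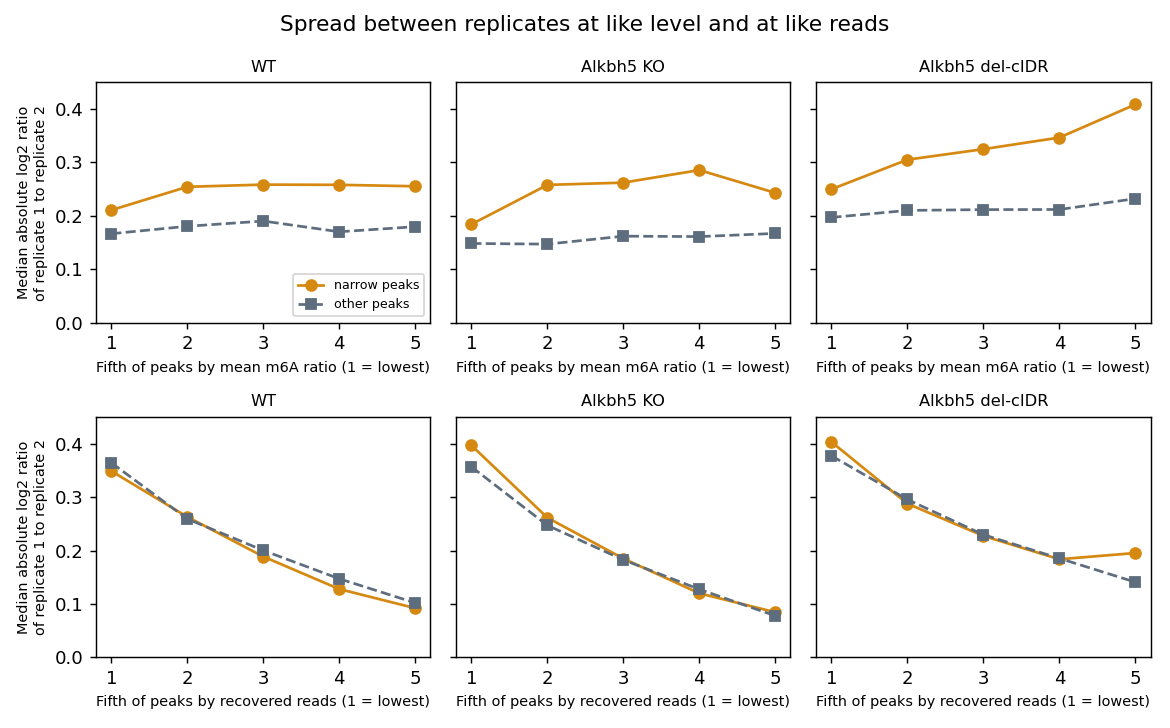
Median absolute log2 ratio of replicate 1 to replicate 2 (vertical axis) for narrow and other peaks, in 5 equal groups of all peaks by mean m6A ratio (upper row) and by recovered reads (lower row), for WT, KO and del-cIDR. Narrow peaks lie above the others in each group by ratio. By reads the lines lie close together and fall, in WT from 0.35 to 0.09 for narrow peaks, except that the narrow peaks of del-cIDR end at 0.20 after 0.18.

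In KO against WT, which asks what the loss of the demethylase does, most narrow peaks had higher scaled ratios in KO. The mean of the library medians was 0.880 ± 0.073 for KO and 0.740 ± 0.062 for WT (SD, n = 2 each), and both KO medians lay above both WT medians. Of all 1800 narrow peaks, KO had the higher mean at 76.8%, and the median of the differences on the log2(ratio + 1) scale was 0.099. For the others these were 79.5% and 0.12. Without KO replicate 2 the narrow median was 0.058. No overlap between libraries, with KO higher, was found for 806 narrow peaks (44.8%), against 42.8% of all peaks, and with KO lower for 111 (6.17%), against 4.81% of all peaks. These shares are near those of all peaks. The direction depends on how the libraries are scaled. Without the control's constant the values are plain ratios of reads, not corrected for the depth of the IP and input samples. The median difference was then -0.21. Narrow medians over the peaks whose reads were recovered were then 1.496 and 1.217 in WT and 1.012 and 0.9934 in KO. Centring each library on its median takes off any shift that all peaks share, and the median difference was then -0.035. Such a value is relative to the median of all peaks and cannot show a change common to them. KO was then higher without overlap at 293 narrow peaks (16.3%), against 18.9% of all peaks, and lower at 507 (28.2%), against 24.2%, in a count added after seeing the data. In such bulk samples a different share of cells and a different ratio per cell cannot be told apart.

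The change in KO was not shown to differ in size between narrow and other peaks. Relative to the other peaks of the same library, the narrow median stood at -1.14 ± 0.01 for KO and -1.19 ± 0.01 for WT (log2, SD, n = 2 each), a difference of 0.042. An exact two-sided permutation test gave p = 0.333, the smallest possible with 2 libraries against 2. Within 5 groups of like mean ratio, a matching chosen after seeing the data, the difference was 0.027, and on the log2(ratio + 1) scale it turned to -0.022.

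Of the 1800 narrow peaks, 681 had a mean ratio of at least 1 and entered the fit with 8770 others. limma called 0 narrow peaks in KO against WT at an adjusted p under 0.05 (smallest adjusted p = 0.330), and 0.0% of all 9451 peaks tested. An unadjusted p under 0.05 was found for 129 narrow peaks higher in KO (18.9% of the 681), against 10.1% of all tested, and for 13 lower (1.91%), against 1.06%. This balance came with the control's scaling. Centred on library medians, 42 of the 681 narrow peaks were higher, against 3.69% of all tested, and 43 were lower, against 4.33% of all tested. After quantile normalization 46 were higher, against 4.03% of all tested, and 37 were lower, against 4.05%. Under both scalings, which take off any shift that all peaks share, the narrow shares were the larger in both directions. Without KO replicate 2 there were 51 higher (against 4.25% of all tested) and 20 lower (against 1.38% of all tested), of 638 narrow peaks. Without WT replicate 2 there were 60 higher (against 4.4% of all tested) and 35 lower (against 2.4% of all tested), of 704 narrow peaks. The filter is on the mean over all libraries, so some peaks were tested only through the genotypes where they were high. Of the 681 narrow peaks 136 had a WT mean under 1, among them 58 of the 129. A KO mean under 1 was found for 41 of the 681, among them 5 of the 13 lower peaks. Counts among the tested peaks are therefore a description and support no direction. Without the filter and on the control's scaling, 312 of all 1800 narrow peaks were higher, against 11.4% of all peaks. Lower were 33 narrow peaks, against 1.12% of all peaks. The narrow share was again the larger in both directions. Fitted to KO and WT alone, 3 narrow peaks passed, all higher in KO, and without del-cIDR replicate 1 or 2 these were 4 and 3.

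The narrow peaks with the smallest p in this comparison are given as values. The 3 with higher values in KO had WT means under 1, so they entered the fit only through the other genotypes. At chr2:26909910-26910135 the ratio was 0.511 and 0.459 in WT, 1.41 and 1.57 in KO, 0.928 and 1.15 in del-cIDR. At chr3:30752463-30752702 it was 0.573 and 0.705 in WT, 2.01 and 1.60 in KO, 1.20 and 1.19 in del-cIDR. In both peaks the 3 genotypes did not overlap and del-cIDR lay between WT and KO. At chr5:48142347-48142553 it was 0.488 and 0.404 in WT, 1.62 and 1.49 in KO, 1.57 and 0.997 in del-cIDR, where KO and del-cIDR overlapped. Its difference from WT in KO was 0.82 (SE 0.13, limma adjusted p = 0.330).

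Lower values in KO were found at chrX:12522828-12523075, with 2.92 and 2.89 in WT, 1.44 and 1.89 in KO, 1.40 and 0.737 in del-cIDR. At chr9:21503812-21504030 the ratio was 3.68 and 3.54 in WT, 2.37 and 2.48 in KO, 2.87 and 2.82 in del-cIDR. At chr15:100378698-100378903 it was 1.75 and 1.15 in WT, 0.778 and 0.893 in KO, 1.08 and 0.936 in del-cIDR. The KO mean of this last peak was under 1, so it entered the fit only through the other genotypes. WT was the highest genotype in all 3 without overlap, and none passed (limma adjusted p = 0.389 each). In each of them a WT library had 1 recovered input read in lowest terms, which is a lower bound.

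In del-cIDR against WT, which asks what the cIDR contributes, narrow peaks lay close to WT. The mean of the library medians was 0.768 ± 0.033 in del-cIDR and 0.740 ± 0.062 in WT (SD, n = 2 each), and the del-cIDR medians, 0.745 and 0.792, overlapped the WT range of 0.696 to 0.785. On the log2(ratio + 1) scale the median of the differences was 0.013 with 56.1% of narrow peaks higher, and -0.013 with 45.9% higher among the others. It turned to -0.0069 without del-cIDR replicate 2 and to -0.015 without WT replicate 2. Without overlap 379 narrow peaks were higher (21.1%), against 16.0% of all peaks, and 257 were lower (14.3%), against 17.1%. Relative to the other peaks of its library the narrow median was at -1.11 ± 0.07 in del-cIDR and -1.19 ± 0.01 in WT, a difference of 0.079 (exact two-sided permutation p = 0.333, the smallest possible). This difference was 0.028 without del-cIDR replicate 2, whose narrow median lay at -1.06, and 0.13 without del-cIDR replicate 1.

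limma called 0 of the 681 narrow peaks tested in del-cIDR against WT (smallest adjusted p = 0.579), and 0.0% of all peaks. An unadjusted p under 0.05 was found for 48 that were higher (7.05%), against 2.72% of all tested, and for 29 that were lower (4.26%), against 3.03%. The median difference of the tested narrow peaks was 0.021, and it turned to -0.030 without WT replicate 2. Of the 48 higher peaks 26 had a WT mean under 1, and of the 29 lower ones 14 had a del-cIDR mean under 1. Leaving out either del-cIDR library gave 1 narrow peak past the threshold, lower without replicate 1 and higher without replicate 2. By p, the leading narrow peak with higher values was again chr5:48142347-48142553. It was followed by chr7:44651574-44651791, with 2.31 and 3.31 for del-cIDR, 1.15 and 1.42 for WT and 1.87 and 2.10 for KO. At chr11:119494559-119494794 the ratio was 1.68 and 1.78 for del-cIDR, 0.916 and 0.880 for WT and 1.31 and 1.62 for KO. WT was the lowest genotype in these 3 peaks without overlap. At chr5:48142347-48142553 and chr11:119494559-119494794 the WT mean was under 1, so they entered the fit only through the other genotypes. KO and del-cIDR share the WT libraries in these comparisons.

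Lower values in del-cIDR were led by chrX:12522828-12523075, at -0.93 from WT (SE 0.18, limma adjusted p = 0.579). At chr1:43090885-43091088 the ratio was 0.949 and 0.421 for del-cIDR, 1.91 and 1.76 for WT and 1.49 and 0.945 for KO. At chr17:17309472-17309679 it was 0.624 and 0.776 for del-cIDR, 1.46 and 1.36 for WT and 1.77 and 1.46 for KO. In the last of these both del-cIDR libraries were the lowest, and in the first the 3 genotypes were in the order WT, KO, del-cIDR without overlap. At chr1:43090885-43091088 and chr17:17309472-17309679 the del-cIDR mean was under 1, so they entered the fit only through the other genotypes.

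Set directly against KO, del-cIDR had lower scaled ratios at most narrow peaks. Over all 1800 the median of the differences was -0.085 (log2(ratio + 1)), and 27.6% were higher in del-cIDR, against -0.13 and 18.8% among the others. Without KO replicate 2 the narrow median was -0.047. The narrow medians of 0.745 and 0.792 in del-cIDR lay below those of 0.828 and 0.932 in KO. Without overlap 710 narrow peaks were lower in del-cIDR (39.4%), against 45.5% of all peaks, and 161 were higher (8.94%), against 5.54%. This direction too depends on the scaling. The median difference was 0.25 without the control's constant, where read depth is not corrected. It was 0.058 after centring, which takes off any shift that all peaks share. Centred, 213 narrow peaks were lower without overlap (11.8%), against 18.3% of all peaks, and 629 were higher (34.9%), against 24.7%. The difference relative to other peaks of the same library was 0.037 (exact two-sided permutation p = 1), and it turned to -0.015 without del-cIDR replicate 2.

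limma called 0 of the 681 narrow peaks in this comparison (smallest adjusted p = 0.229), and 0.0% of all peaks. An unadjusted p under 0.05 was found for 93 that were lower in del-cIDR (13.7%), against 10.4% of all tested, and for 23 that were higher (3.38%), against 1.33%. The balance turned under other scalings. Centred, 42 of the 681 were lower, against 4.03% of all tested, and 63 were higher, against 4.55% of all tested. After quantile normalization 47 were lower, against 4.2% of all tested, and 62 were higher, against 4.41%. Under both scalings the narrow shares were the larger in both directions. Without KO replicate 2 there were 59 lower (against 4.67% of all tested) and 27 higher (against 1.52% of all tested), of 638 narrow peaks. Of the 93 lower peaks 37 had a del-cIDR mean under 1, and of the 23 higher ones 11 had a KO mean under 1. Without del-cIDR replicate 1 or 2, 1 narrow peak passed each time, higher in del-cIDR. The smallest p belonged to chr17:17309472-17309679, at -0.62 (SE 0.12). At chr17:27189653-27189871 the ratio was 0.811 and 0.952 for del-cIDR, 1.71 and 2.00 for KO and 1.31 and 1.40 for WT. At chr9:76399693-76399931 it was 1.27 and 1.33 for del-cIDR, 2.74 and 3.15 for KO and 2.83 and 2.07 for WT. In all 3 peaks both del-cIDR libraries were the lowest. At chr17:17309472-17309679 and chr17:27189653-27189871 the del-cIDR mean was under 1, so they entered the fit only through the other genotypes.

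The values of del-cIDR were above those of KO at chr5:122377999-122378201, with 1.13 and 2.23 for del-cIDR, 0.501 and 0.514 for KO and 1.03 and 1.17 for WT. At chr9:123247459-123247707 the ratio was 1.72 and 1.32 for del-cIDR, 0.764 and 0.630 for KO and 0.789 and 1.03 for WT. At chr16:29757822-29758055 it was 2.30 and 2.08 for del-cIDR, 1.35 and 1.27 for KO and 1.51 and 1.34 for WT. In the last 2 del-cIDR alone stood above the rest, and in the first KO alone stood below. The KO mean at chr5:122377999-122378201 was under 1, so it entered the fit only through the other genotypes. KO and WT means were both under 1 at chr9:123247459-123247707, which entered only through del-cIDR. The genotype with the highest mean was KO at 1136 narrow peaks (63.1%), del-cIDR at 391 (21.7%) and WT at 273 (15.2%), against 70.0%, 14.3% and 15.7% of the others. This order holds for the control's scaling alone. Centring takes off any shift that all peaks share. In counts added after seeing the data, it put KO highest at 450 narrow peaks, del-cIDR at 814 and WT at 536. Counts without the constant, also added then, are not corrected for read depth. In these KO had 3.42%, del-cIDR 59.2% and WT 37.4% of the 1754 narrow peaks with recovered reads.

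**Figure D5:**
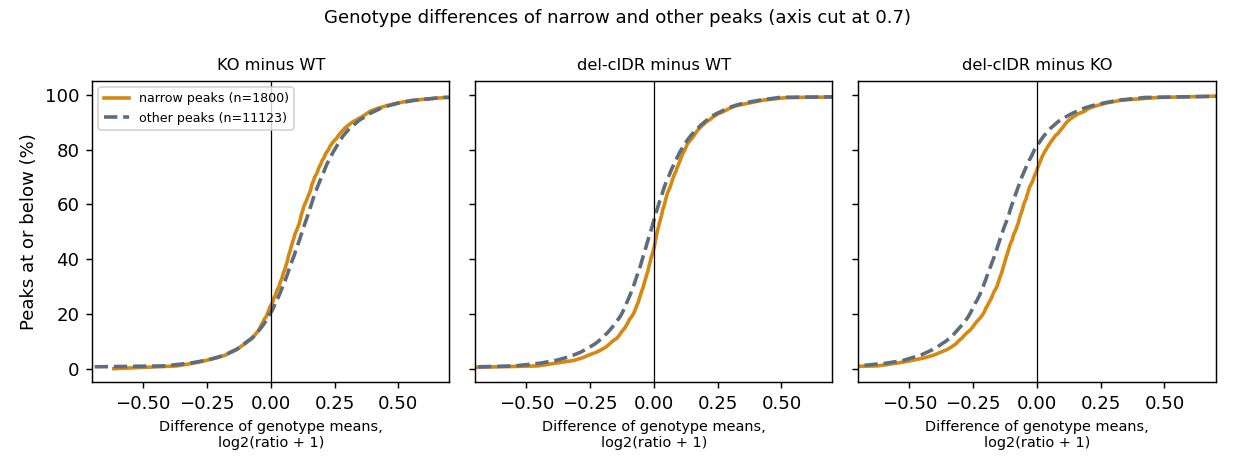
Share of peaks (vertical axis, percent) at or below a difference of genotype means on the log2(ratio + 1) scale (horizontal axis, drawn from -0.7 to 0.7) for narrow and other peaks, in KO minus WT, del-cIDR minus WT and del-cIDR minus KO. The curves for narrow peaks have medians of 0.099, 0.013 and -0.085, and those for the others 0.12, -0.013 and -0.13.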

How the data were processed

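The deposited table holds, for 1 common set of peaks, a ratio of IP to input reads times 1 constant per library, which was read from the values (relative tolerance 1e-10, denominators up to 3000). The submitters' processing notes name the build GRCm39 and the tools MACS2, featureCounts, bedtools, HISAT2, fastp, Picard and SAMtools, with no role given. The table counts starts from 0, and starts are printed here plus 1. Peaks whose mean ratio reached 1 were tested on the log2(ratio + 1) scale with limma 3.58.1 (R 4.3.3). The fit held the 3 genotypes together and let the eBayes prior follow a trend. Calls were made at a Benjamini-Hochberg adjusted p under 0.05. Level, spread and shift used medians over all peaks without a filter, and exact permutation tests over libraries (Python 3.11.15, scipy 1.17.1).

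Peaks were named by rule: the highest mean ratios, the narrowest, the largest replicate folds, and the 3 smallest p in each direction where none passed. The lowest mean ratios were named after seeing the values. The members and rules were chosen with earlier results of these data known. The mRNA table was not used here: the reference given is of another build and paired no gene identifier with a symbol, so planned mRNA fits, gene features and peak sequences were not analysed here.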

Additional observations from a re-analysis of the deposited data

How the results depend on the processing

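The lower level of narrow peaks kept its direction and its exact sign-flip p of 0.03125 with width limits of 200 or 300 bases, others up to 1000 bases, a mean ratio of at least 1 (-0.66), autosomes alone, log means or at least 50 reads. With 1 library left out it was -1.16 to -1.14 and that of narrow peaks beside a wider neighbour -0.94 to -0.90, each at an exact p of 0.0625, the smallest that 5 libraries allow. The spread difference turned on the log2(ratio + 1) scale (-0.0081), and leaving out a replicate gives no spread for its genotype. The narrow median in KO against WT was 0.23 with a pseudocount of 0.1, 0.18 with a mean of at least 2, -0.035 centred, 0.013 after quantile normalization and -0.21 without the control's constant. For del-cIDR against KO these were -0.19, -0.14, 0.058, 0.0005 and 0.25. Centring and quantile normalization take off any shift that all peaks share. Values without the constant are not corrected for read depth. With 1 library left out, KO against WT ranged from 0.058 to 0.14, del-cIDR against WT from -0.015 to 0.051 and del-cIDR against KO from -0.12 to -0.047. Relative to the other peaks, the shift in KO against WT was -0.022 on the log2(ratio + 1) scale. For del-cIDR against KO it was -0.045 with a width limit of 200 bases, and -0.015 to 0.089 with 1 library left out. Narrow peaks past the threshold were 3 with only KO and WT fitted, and 0 to 4, 0 to 1 and 0 to 1 with 1 library left out in KO against WT, del-cIDR against WT and del-cIDR against KO (the spread then comes from the remaining pairs, which a single library is taken to share). The other alternatives gave 0, except the replicate block, with 15, 4 and 22. Replicates share only a number: deviations of same-numbered libraries correlated at -0.015 (WT and KO), 0.016 (WT and del-cIDR) and 0.022 (KO and del-cIDR). In the median shifts the block changed no value. Planned mRNA alternatives and sequence features were not run. The reads behind a ratio are known only as lower bounds, so its counting error is known only as an upper bound.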

Other observations

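Narrow peaks were spread over the chromosomes without a gap. They made up between 11.8% and 17.6% of the peaks of an autosome, 16.5% of those of chromosome X (54 of 327) and 2 of 10 on chromosome Y, and none of the 6 peaks on unplaced sequences. On the autosomes and chromosome X the median of the mean ratio of narrow peaks lay between 0.714 and 0.920, below that of the other peaks of the same chromosome, which was 1.58 to 2.05.

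At the low end, chr19:38050854-38051086 had a ratio of 0.0397 in WT replicate 1 and 0.00837 in del-cIDR replicate 1 and was listed at 0 in the other 4 libraries. Its mean was the lowest of all narrow peaks. At chr11:82656741-82656952 the ratio was 0.0700 in KO replicate 2 and 0.0517 in del-cIDR replicate 2 and listed at 0 elsewhere. At chr7:99498233-99498462 it was 0.0438 and 0.0165 in WT and 0.0614 in del-cIDR replicate 2 and listed at 0 elsewhere. The means of these 3 peaks were 0.00801, 0.0203 and 0.0203, while the unmodified control ranged from 0.0100 to 0.0527 over libraries. In all, 21 narrow peaks and 6 others were listed at 0 in at least 1 library.

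Folds between replicates were largest, by their median over genotypes, at the following 3 narrow peaks above 0 everywhere. At chr16:34529712-34529922 the ratio was 0.162 and 0.0275 in WT, 0.0343 and 0.189 in KO, 0.0689 and 0.179 in del-cIDR. At chr13:81785935-81786140 it was 1.30 and 0.260 in WT, 0.274 and 1.65 in KO, 1.35 and 1.64 in del-cIDR. At chr9:119133934-119134139 it was 0.0421 and 0.165 in WT, 0.0839 and 0.0205 in KO, 0.114 and 0.0578 in del-cIDR. In each of these the replicates of WT and of KO went in opposite directions. Their recovered IP reads in lowest terms, which are lower bounds, went down to 1 in each peak. The most in any library were 4, 42 and 7, in the order given.

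The 3 narrow peaks of 200 bases that come first in chromosome order lay on chromosome 1. At chr1:9968891-9969090 the ratio was 0.393 and 0.474 in WT, 0.588 and 0.728 in KO, 0.483 and 0.662 in del-cIDR. At chr1:54436868-54437067 it was 1.43 and 1.27 in WT, 1.37 and 1.56 in KO, 1.11 and 1.08 in del-cIDR. At chr1:86471037-86471236 all libraries lay between 0.426 and 0.651, with the genotypes overlapping.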
